A study of Rattus norvegicus with 22 samples.

Results

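Cth, Bhmt and Gldc encode 3 enzymes of methionine, cysteine and glycine metabolism, and their liver RNA was followed here animal by animal in young adult male rats. They were taken by gene symbol from a table of 1365 rows, in which each of them has 1 row, and from the same table came the other genes of these pathways. The animals, Wistar rats, were studied on postnatal day 110 and were born to mothers on an obesogenic diet (maternal obesity, MO) or on a control diet. There were 5 MO males and 6 Control males, and 5 MO females and 6 Control females in a separate table of 69 rows. Each animal gave 1 liver RNA library. The labels name no transgene, no drug and no litter. The animals of a group may therefore be littermates, and any spread given here is the spread between these animals. None of the 3 genes was in the female table, and neither was any other gene of the pathway lists, so female liver is not described further.

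The 3 enzymes stand where the sulfur amino acids and the folate-bound carbon units meet. Homocysteine, left over when S-adenosylmethionine gives up its methyl group, is either turned back into methionine or passed on to cysteine. Bhmt (betaine-homocysteine methyltransferase) makes methionine with a methyl group from betaine, a product of choline oxidation, and is abundant in hepatocytes. On the other branch Cbs joins homocysteine to serine, and Cth (cystathionine gamma-lyase) splits the resulting cystathionine to release cysteine, the precursor of glutathione and taurine. Gldc (glycine decarboxylase) is the P protein of the mitochondrial glycine cleavage system, which breaks glycine down and hands its methylene carbon to tetrahydrofolate.

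The stretch around the annotated start of each gene is shown because the RNA of all 3 was lower in MO males. Each runs from 250 bases before to 50 bases after the start of the gene in RefSeq (build GRCr8), on the minus strand, read 5′ to 3′ along the gene. Capitals mark the matches, on either strand, to the letters of an E-box, the CCAAT box, a TATA box, a GC box or a nuclear receptor core site, which are spelled out with their counts after the sequences, and no match overlaps another. Cth lies on chromosome 2 (chr2:249661017-249661316), Bhmt on the same chromosome (chr2:26614380-26614679) and Gldc on chromosome 1 (chr1:237375555-237375854).
Cth: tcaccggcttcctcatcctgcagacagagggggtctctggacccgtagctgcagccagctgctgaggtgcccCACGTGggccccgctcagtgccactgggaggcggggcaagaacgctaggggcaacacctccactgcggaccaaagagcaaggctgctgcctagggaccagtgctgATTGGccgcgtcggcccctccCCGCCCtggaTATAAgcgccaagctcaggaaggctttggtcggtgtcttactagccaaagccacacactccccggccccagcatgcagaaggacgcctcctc
Bhmt: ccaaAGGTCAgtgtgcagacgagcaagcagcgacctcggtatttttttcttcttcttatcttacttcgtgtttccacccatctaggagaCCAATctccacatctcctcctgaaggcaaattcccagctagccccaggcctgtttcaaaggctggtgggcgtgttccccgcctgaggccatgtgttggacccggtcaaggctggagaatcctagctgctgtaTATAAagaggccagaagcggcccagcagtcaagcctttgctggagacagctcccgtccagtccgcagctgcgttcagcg
Gldc: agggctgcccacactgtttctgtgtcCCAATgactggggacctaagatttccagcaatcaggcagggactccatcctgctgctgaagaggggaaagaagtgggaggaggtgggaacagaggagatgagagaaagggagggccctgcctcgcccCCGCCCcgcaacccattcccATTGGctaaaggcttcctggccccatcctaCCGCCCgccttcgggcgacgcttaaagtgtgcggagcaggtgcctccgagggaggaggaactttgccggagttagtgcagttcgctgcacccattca
All 3 stretches held the CCAAT letters, as did 37.5% of the 33469 stretches of this length in the RefSeq table. The match began at base -73 in Cth, at base -161 in Bhmt and at bases -224 and -77 in Gldc, counted from the start of the gene. The TATA box letters TATAA were found in Cth at base -42 and in Bhmt at base -29, and in 26.2% of all stretches. The GC box letters GGGCGG were found in Cth and, at 2 places, in Gldc, and in 33.1% of all stretches. The E-box letters CACGTG occurred in Cth alone of the 3, at base -178, and in 6.42% of all stretches. The nuclear receptor core letters AGGTCA occurred in Bhmt alone, at base -246, and in 16.2% of all stretches. A search for TTGCATCA (an amino acid response element), TGACGTCA (a cAMP response element) and TTATGTAA (a D-box) gave 0 matches in the 3 stretches, and these letters occurred in 0.795%, 1.83% and 0.893% of all stretches. None of the matched letters is shown by these data to be a bound site.

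The male table holds rows already selected for a difference between the groups, and the 3 genes were chosen from it for that difference. What follows on MO against Control males is therefore a description of the values, and no test of it is given. In the authors' deposited table the unadjusted p-values of this comparison were 6.33e-06 for Cth, 0.00055 for Bhmt and 0.0005 for Gldc. Levels are reads scaled to a common library total (RPM), obtained by subtracting the 1 that every deposited value contains. Of the 1365 rows 1317 were lower and 48 higher in MO males, and the median log2 difference over all rows was -0.58. All rows passed limma with Benjamini-Hochberg adjustment over the table (100% of rows, 96.5% as lower and 3.52% as higher), so passing carries no information about a member. Depth, read from the steps between low values, was 10530000 to 11590000 reads in MO males and 7890000 to 11170000 reads in Control males.

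Cth was lower in every MO male than in any Control male. It stood at 347, 220, 360, 341 and 357 RPM in MO males 1 to 5, against 1182, 1109, 898, 1145, 787 and 800 RPM in Control males 1 to 6. The MO animals lay close together except for MO male 2, and the highest MO animal was 2.19-fold below the lowest Control. The mean was 324.9 ± 59.3 RPM in MO males (SD, n = 5) and 987 ± 179 RPM in Control males (SD, n = 6), a log2 difference of -1.60 ± 0.19 (limma SE), or 3.04-fold less. It held place 14 when the 1365 rows were ordered from the largest fall upward. The values rest on 2312 to 4138 reads per MO library and 7531 to 11833 reads per Control library.

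Bhmt differed by nearly as much but varied more among the animals. It stood at 1402, 1354, 985, 1862 and 937 RPM in MO males 1 to 5, against 3842, 2577, 2383, 5725, 5612 and 3260 RPM in Control males 1 to 6. Controls 4 and 5 were at about the same high level, Controls 2 and 3 were lowest, and the groups did not overlap, the lowest Control being 1.28-fold above the highest MO animal. The mean was 1308 ± 374 RPM in MO males (SD, n = 5) and 3900 ± 1465 RPM in Control males (SD, n = 6), a log2 difference of -1.54 ± 0.24 (limma SE), in place 17 of the table. The coefficient of variation was 28.6% in MO males and 37.6% in Control males, against 18.3% and 18.2% for Cth. With 10860 to 62680 reads per library, counting error was under 1% of any Bhmt value, so its spread is not one of counting.

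Gldc was the least abundant of the 3 in reads. It stood at 17.7, 13.5, 21.9, 21.8 and 22.4 RPM in MO males 1 to 5, against 75.9, 62.8, 33.7, 44.2, 35.7 and 75.8 RPM in Control males 1 to 6. Controls 1 and 6 were highest, Controls 3 and 5 lowest, and again no MO animal reached the lowest Control, which was 1.51-fold above the highest MO animal. The mean was 19.4 ± 3.83 RPM in MO males (SD, n = 5) and 54.7 ± 19.3 RPM in Control males (SD, n = 6), a log2 difference of -1.39 ± 0.22 (limma SE), in place 27 of the table. Its levels rest on 142 to 259 reads per MO library, where counting error alone was 6.21% to 8.39% of the value, and on 302 to 760 reads per Control library.

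**Figure D1:**
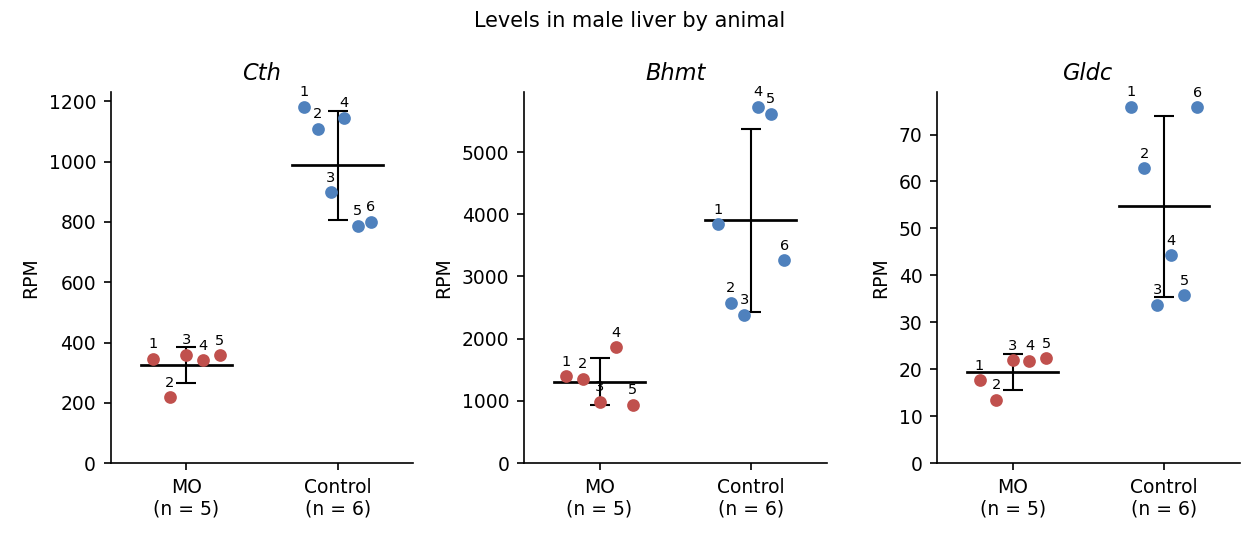
RPM of Cth, Bhmt and Gldc in each male liver, MO animals left and Control animals right, numbered by replicate; horizontal lines are means and bars are SD (n = 5 and n = 6). In each panel the 5 MO animals lie below the lowest Control, and the gap is widest as a fold in Cth, whose lowest Control is 2.19-fold above the highest MO animal.

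Every MO animal lay below every Control for all 3 genes, a pattern that 29.9% of the 1365 rows showed. Together the 3 RNAs took 0.165% ± 0.0367 of all reads in MO males (SD, n = 5) and 0.494% ± 0.147 in Control males (SD, n = 6). The listed rows as a whole were lower in MO males. They were selected for a difference, lower or higher, and why most were lower was not tested. The median of the listed rows was 12.2 to 15.7 RPM in MO libraries and 18.5 to 29.3 RPM in Control libraries. Centring each library on this median removes a shift of -0.58 on the log2 scale from every row. The log2 differences relative to that shift were -1.02 ± 0.20 for Cth, -0.95 ± 0.28 for Bhmt and -0.81 ± 0.21 for Gldc (limma SE). On the centred scale 4 of 5 MO animals were below every Control for Cth, 3 of 5 for Bhmt and 4 of 5 for Gldc, and a full separation was left in 0.952% of rows. In bulk tissue, fewer hepatocytes and less RNA per hepatocyte cannot be told apart.

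The few markers of other cell types in the table were lower in MO males, as were 96.5% of all rows. Of 45 such markers (Kupffer, stellate, endothelial, bile duct, lymphocyte and erythroid), 6 were in the table, all lower, from Vwf of endothelial cells at -0.48 to Pdgfrb of stellate cells at -0.70. Their summed level was 42.8 to 55.3 RPM in MO males and 69.7 to 80.9 RPM in Control males, none of the 6 was at 0 in any animal, and their part in the result was not tested. None of the 9 general hepatocyte markers looked for, albumin among them, was in the table. Of 18 markers of periportal and pericentral hepatocytes 5 were, all lower and none at 0 in any animal. Cps1, the first enzyme of the urea cycle, was at 796 to 916 RPM in MO males and 859 to 1900 RPM in Control males. The periportal Hal, which breaks down histidine, was at -1.08 and the pericentral Oat, an ornithine aminotransferase, at -1.06 (log2 difference). Cps1 was at -0.52, the periportal Cyp2f4 at -0.59 and the pericentral Axin2 at -0.79. The part of these 5 markers in the result was not tested. The RNA Rmrp, which has no poly(A) tail, was at 1.71 to 3.11 RPM in MO males, at 1.20 and 1.52 RPM in Controls 1 and 5 and at 36.9 to 51.2 RPM in the other Controls. Why Rmrp differed among the libraries, and its part in the result, were not tested. With Controls 1 and 5 as the only Controls, the log2 differences were -1.59 for Cth, -1.87 for Bhmt and -1.40 for Gldc. These values rest on those Controls alone and are given as a description.

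Each of the 3 enzymes has a partner in the table that works beside it, and a ratio taken within an animal does not depend on how its library was scaled. The partners were picked with the values in view. Cbs, which makes the cystathionine that Cth splits, was lower by less (-0.66 ± 0.18, limma SE), at 187 to 287 RPM in MO males and 299 to 506 RPM in Control males. The Cth level per unit of Cbs was 1.47 ± 0.409 in MO males (SD, n = 5) and 2.88 ± 0.940 in Control males (SD, n = 6), a log2 difference of -0.94 ± 0.28 (SE). MO males 1 to 5 were at 1.21, 1.01, 1.92, 1.34 and 1.88, and Controls 1 to 6 at 3.96, 3.27, 2.63, 3.74, 2.09 and 1.58. Here 3 of 5 MO animals were below every Control. Without Control male 6, which had the highest Cbs and the lowest ratio of the Controls, 5 of 5 were. Relative to Cbs, 0.297% of 1348 rows separated the groups fully downward, and 0.593% did so without Control male 6, an animal left out after its values were seen.

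Bhmt2, a close relative of Bhmt that takes its methyl group from S-methylmethionine, varied little among the animals. It was at 424 to 469 RPM in MO males and 598 to 818 RPM in Control males (-0.60 ± 0.16, limma SE), with a coefficient of variation of 3.93% and 13.4%. The Bhmt level per unit of Bhmt2 was 2.87 ± 0.778 in MO males (SD, n = 5) and 5.67 ± 2.23 in Control males (SD, n = 6), a log2 difference of -0.94 ± 0.28 (SE), with 4 of 5 MO animals below every Control. Without Control male 6, which had the highest Bhmt2, it was still 4 of 5. In Controls 4 and 5, the highest in Bhmt, Bhmt2 was at 759 and 606 RPM. How reads that fit both genes were counted is not given in the sources used here, so the split between them is uncertain. Relative to Bhmt2, 0.742% of 1348 rows separated fully downward.

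Amt, the T protein that works with Gldc in glycine cleavage, differed least of the partners, at 33.7 to 44.9 RPM in MO males and 47.3 to 74.7 RPM in Control males (-0.48 ± 0.17, limma SE). The Gldc level per unit of Amt was 0.503 ± 0.0921 in MO males (SD, n = 5) and 0.991 ± 0.285 in Control males (SD, n = 6), a log2 difference of -0.95 ± 0.22 (SE). The ratio was 0.400 to 0.648 in MO males and 0.658 to 1.34 in Control males, so that all 5 MO animals were below every Control by a narrow gap. Relative to Amt, 2.6% of 1348 rows separated fully downward. The remaining subunits of the system, Gcsh and Dld, were not in the table.

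**Figure D2:**
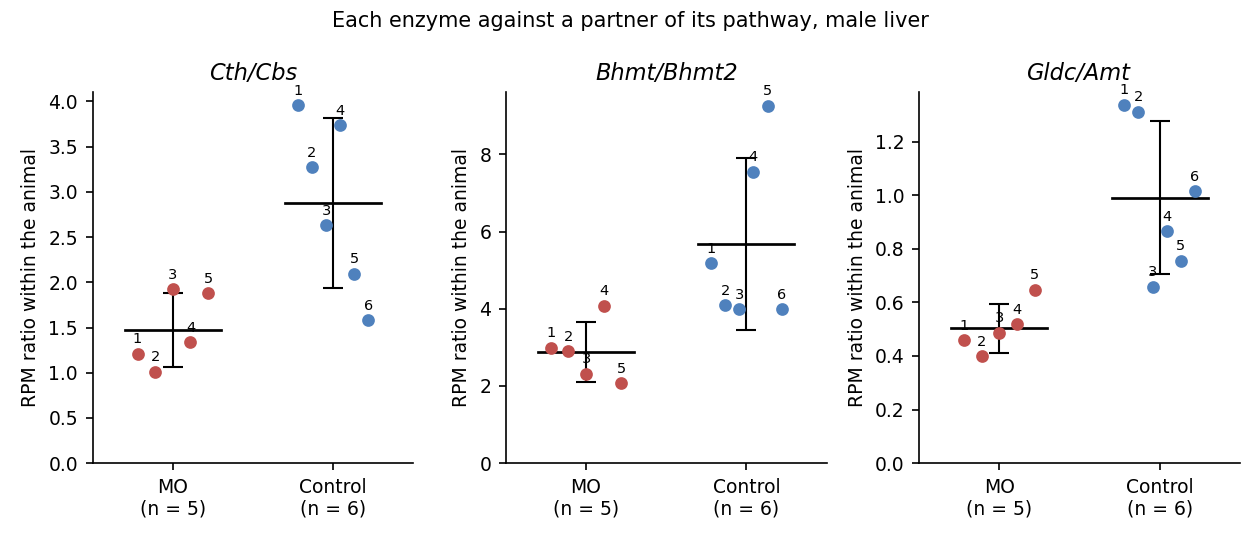
RPM of Cth, Bhmt and Gldc divided by the RPM of Cbs, Bhmt2 and Amt in the same animal (a ratio without unit, not corrected for transcript length), MO males left and Control males right, numbered by replicate; lines are means and bars are SD (n = 5 and n = 6). Gldc/Amt separates the groups, while MO male 4 for Bhmt/Bhmt2 and MO males 3 and 5 for Cth/Cbs reach into the Control range.

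Ratios among the 3 genes did not separate the groups. All 3 were chosen for their difference between these groups. A small difference in their ratios is therefore partly fixed by that choice and does not show that they change together. The Bhmt level per unit of Cth was 4.21 ± 1.59 in MO males (SD, n = 5) and 4.07 ± 1.79 in Control males (SD, n = 6), a log2 difference of 0.07 ± 0.35 (SE). For Gldc per unit of Cth the log2 difference was 0.17 ± 0.24 (SE), and for Gldc per unit of Bhmt it was 0.10 ± 0.44 (SE). The ranges overlapped in all 3 ratios, and the errors leave room for differences as large as the SE or beyond. The Gldc level per unit of Cth was nearly constant among MO males, at 0.0510 to 0.0639, and ran between 0.0375 and 0.0947 in Control males.

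Animal by animal, no pair of the 3 genes covaried detectably within the Control group. Over the 6 Control males Pearson's r of log2 levels was 0.01 for Cth and Bhmt (exact permutation p = 0.986, Spearman's rho 0.14, exact p = 0.803). It was 0.33 for Cth and Gldc (exact permutation p = 0.476, rho 0.49, exact p = 0.356) and -0.20 for Bhmt and Gldc (exact permutation p = 0.649, rho 0.14, exact p = 0.803). All tests were two-sided, and after adjustment over the 3 pairs the lowest exact permutation p was 0.973 for r and 0.803 for rho. With 6 animals a moderate correlation would not be detected. Without the 2 animals farthest from the median of the first gene, r was 0.66, 0.81 and 0.80 for the 3 pairs over 4 animals. The animals left out were Controls 5 and 6 for Cth and Controls 4 and 5 for Bhmt, and over 4 animals r is not a stable value.

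After centring, r within the Controls was 0.48 for Cth and Bhmt (exact permutation p = 0.308), 0.42 for Cth and Gldc (exact permutation p = 0.410) and 0.01 for Bhmt and Gldc (exact permutation p = 0.986). The lowest adjusted value over the 3 pairs was 0.615 (exact permutation p). The rho values were 0.71, 0.31 and 0.14, with exact p of 0.136, 0.564 and 0.803. Without the 2 animals farthest from the median, r was -0.11, 0.97 and 0.82. On this scale the animals left out were Controls 4 and 6 for Cth and Controls 4 and 5 for Bhmt. For the 5 MO males the values stand in place of a correlation. MO male 2 was lowest of its group in both Cth (220 RPM) and Gldc (13.5 RPM) but had 1354 RPM of Bhmt, the median of that group. MO male 5, the lowest in Bhmt at 937 RPM, was highest in Gldc at 22.4 RPM.

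**Figure D3:**
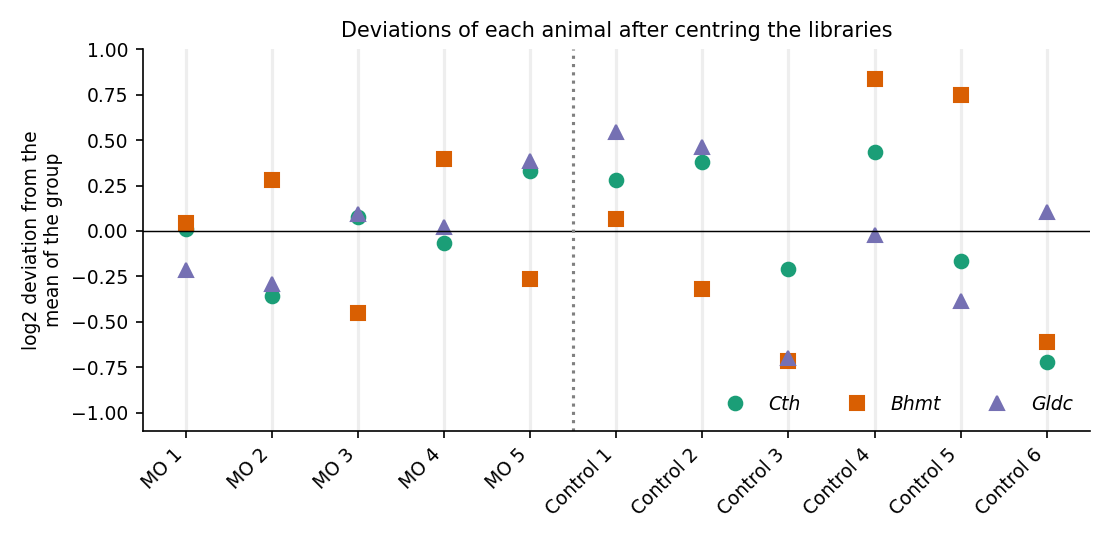
Deviation of each male liver from the mean of its own group, in log2 units after centring the libraries, for Cth (circles), Bhmt (squares) and Gldc (triangles), MO animals left of the dotted line and Control animals right of it. Bhmt lies on the other side of the group mean from both other genes in MO males 2, 3 and 5 and in Control males 2 and 5. In Control male 5 the values are 0.75 for Bhmt, -0.17 for Cth and -0.39 for Gldc. In MO male 3 Cth and Gldc lie close to the mean, at 0.08 and 0.09. All 3 are above the mean in Control male 1 and below it in Control male 3.

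Control male 6, high in most pathway genes, was not the highest Control in any of the 3. It had the highest level of the 6 Controls in 17 of the 24 pathway genes in the table (70.8%), and in 71.4% of the 1341 other rows. In Cth it was next to lowest at 800 RPM, in Bhmt it was below 3 others at 3260 RPM, and in Gldc it was next to highest at 75.8 RPM. Relative to its library it was therefore low in Cth, at -0.72 from the mean of the Controls on the centred log2 scale.

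The genes whose animal-to-animal deviations most resembled each member were looked up over all 11 males, with the group means removed and the libraries centred. This compares deviations and not the difference between the groups. Cth lay closest to the beta tubulin Tubb2a (r = 0.93), the acidic nuclear phosphoprotein Anp32a (0.88), the succinate semialdehyde dehydrogenase Aldh5a1 (0.86), Mk1 (0.84) and Pdcl3 (0.83). Bhmt lay closest to the glutathione transferase Gstm7 (0.84), the isovaleryl-CoA dehydrogenase Ivd (0.79) and Mmaa of cobalamin handling (0.77), followed by the metallopeptidase Adam15 (0.77) and the clotting protein Vwf (0.76). Gldc lay closest to Mkln1 (0.84), Rcbtb2 (0.84), Aldh4a1 of proline breakdown (0.83), Zfyve21 (0.81) and the carbonic anhydrase Car14 (0.80). The r values were taken from 1041 genes per member, of which 5% exceeded 0.62 for Cth, 0.62 for Bhmt and 0.60 for Gldc. The genes named are the highest of that many r values over 11 animals, so their r is high by selection and was not tested. Between the members themselves the same r was 0.26 for Cth and Bhmt, 0.51 for Cth and Gldc and -0.10 for Bhmt and Gldc.

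The pathway lists around the 3 enzymes held 120 genes, of which 24 were in the male table. Of these 23 were lower and 1 was higher in MO males, with a median log2 difference of -0.59 beside -0.58 over all rows, and all 24 passed limma, as did every row. In 10 of the 24, or 7 of the 21 other than the members, every MO animal was below every Control, beside 29.9% of all rows. A log2 difference of -1 or below was reached by 6 of the 24, the 3 members included, and by 5.2% of all rows. The members were chosen for their difference, and of the other 21 only Agxt, Ethe1 and Gnmt reached it. Genes outside the table are not analysed here.

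In the methionine cycle and salvage list 4 of 16 genes were in the table, all lower. Besides Bhmt and Bhmt2 these were Mtap of methionine salvage (-0.53 ± 0.18, limma SE, and -0.34 with Controls 1 and 5 as the only Controls) and Gnmt, the glycine N-methyltransferase that uses up excess S-adenosylmethionine. Gnmt was at 161 to 463 RPM in MO males (median 395 RPM) and 341 to 1004 RPM in Control males, with a log2 difference of -1.04 ± 0.30 (limma SE) and 2 of 5 MO animals below every Control. Mat1a, Ahcy and Mtr, which make S-adenosylmethionine, break down its product and remethylate homocysteine with folate, were not in the table. Among the methyltransferases that draw on S-adenosylmethionine, Gamt, which makes creatine, was at -0.48 ± 0.19 (limma SE).

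In the transsulfuration and cysteine list 5 of 12 genes were in the table, all lower, Cth among them. Ethe1, the mitochondrial persulfide dioxygenase of hydrogen sulfide breakdown, was at 9.70 to 29.5 RPM in MO males and 24.4 to 72.7 RPM in Control males, with a log2 difference of -1.08 ± 0.26 (limma SE) and 3 of 5 MO animals below every Control. Mpst, a sulfurtransferase acting on mercaptopyruvate, was at 56.7 to 88.5 RPM in MO males and 103 to 185 RPM in Control males (-0.76 ± 0.18, limma SE). Suox, the sulfite oxidase, was at -0.54 ± 0.16 (limma SE). Of the 9 glutathione synthesis and turnover genes, Gclc and Gss among them, 0 were in the table.

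In the glycine, serine and glyoxylate list 8 of 22 genes were in the table, all lower. Agxt, the alanine-glyoxylate aminotransferase that makes glycine from glyoxylate, followed Gldc at -1.26 ± 0.24 (limma SE). It was at 20.5 to 42.5 RPM in MO males and 42.4 to 118 RPM in Control males, and its 2 rows hold the same values. MO male 4 just exceeded the lowest Control, so that 4 of 5 MO animals were below every Control. Gcat, which makes glycine from a product of threonine breakdown, was at -0.70 ± 0.18 (limma SE), and at -0.37 with Controls 1 and 5 as the only Controls. The cytosolic serine hydroxymethyltransferase Shmt1 was at -0.63 ± 0.21, Agxt2 at -0.59 ± 0.18, Glyctk at -0.54 ± 0.19 and Psph, the last enzyme of serine synthesis, at -0.49 ± 0.20 (limma SE each). With Controls 1 and 5 as the only Controls Psph was at -0.32.

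The folate list gave 2 of 20 genes, Aldh1l1, which oxidises formyltetrahydrofolate (-0.55 ± 0.19, limma SE), and Mthfs (-0.51 ± 0.17, limma SE). The cobalamin, propionate and vitamin B6 list gave 1 of 13, Mmaa (-0.52 ± 0.18, limma SE). The amino acid stress list gave 1 of 10, the antioxidant regulator Nfe2l2 (-0.53 ± 0.19, limma SE, and -0.24 with Controls 1 and 5 as the only Controls), while Atf4 and Asns were not in the table. Of the 11 choline, betaine and sarcosine genes 1 was in the table, and it was the only pathway gene higher in MO males. Chka, the choline kinase that commits choline to phosphatidylcholine, was at 133, 75.8, 92.1, 74.5 and 91.2 RPM in MO males 1 to 5, against 66.0, 64.0, 60.9, 60.1, 45.9 and 69.9 RPM in Control males 1 to 6. Its log2 difference was 0.58 ± 0.18 (limma SE). All 5 MO animals were above every Control. Such a separation was seen in 10 of the 1365 rows (0.733%), while only 48 rows were higher in MO males at all. Chdh, which oxidises choline toward the betaine that Bhmt uses, was not in the table.

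**Figure D4:**
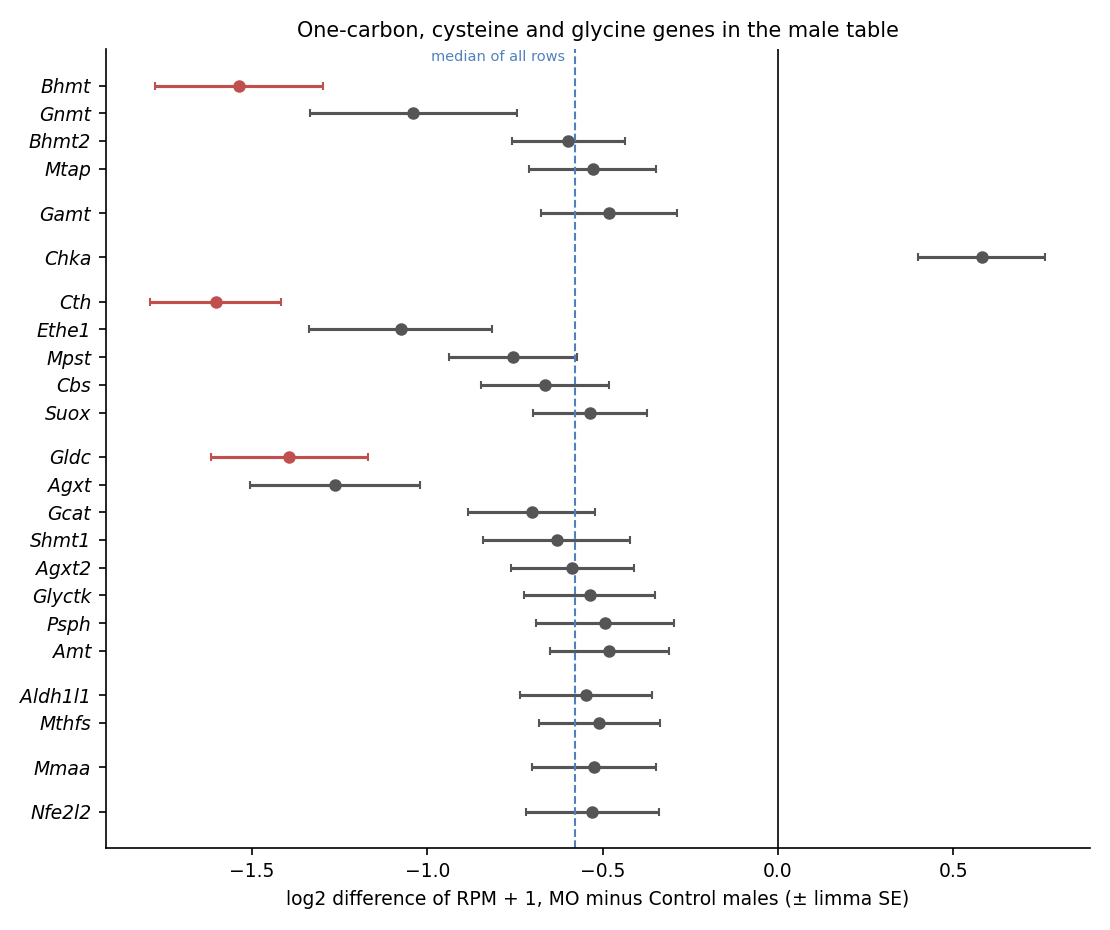
Log2 difference (MO minus Control males, on RPM + 1, with limma SE) of 23 of the 24 pathway genes in the male table, grouped by list, with Cth, Bhmt and Gldc in red and the median of all 1365 rows (-0.58) as a dashed line. The 3 red genes and Agxt, Ethe1 and Gnmt lie below -1, most others cluster at the dashed line, and Chka alone lies above 0.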

How the data were processed

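Liver RNA libraries from 22 Wistar rats were grouped by sex and maternal diet as the sample titles give them. Per the labels' protocols, RNA from 10 to 20 mg of tissue was extracted with a miRNeasy kit and 1 µg of total RNA went into an Illumina TruSeq library. STAR 2.3.1j, Partek and build rn5 are named in the submitters' processing notes without their roles; the annotation used and the rule of counting are not stated there or in the labels. The authors deposited RPM with 1 added for every animal, a unit inferred from the values. The lowest is exactly 1 and, once that 1 is taken off, 81.4% to 86.6% of male values under 9 RPM came to whole reads to within 0.02 of a read for some depth of the library. In females the share was 54.9% to 61.1%. Fractional values remained, so no count test was run. The fold deposited by the authors is the size of a log2 difference, recovered in 1365 of 1365 male rows, and the p-values deposited by the authors are unadjusted and under 0.05 in every male row, so the table is a selection.

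In R 4.3.3, limma 3.58.1 with a mean-variance trend was fitted to the log2(RPM + 1) values of each sex, a pseudocount of 1, over all rows without a filter, with Benjamini-Hochberg adjustment at 0.05. Fold changes are on this scale, which understates those of low genes. The limma SE draws on the spread of selected rows, which can make it too small. SEs of ratios are from the 11 animals alone. Of the duplicate rows 1 per gene was used. The fits were tested on simulated data. Correlations within Controls used exact permutation (SciPy 1.17.1). The values of 1 pathway gene are not reported here. Members and gene lists were chosen with earlier results of these data known. Pathway genes with a log2 difference of at least 0.7 were to be named, the others where their role called for it, and 5 genes per member by likeness (mean of at least 5 RPM). Alternatives were library centring, pseudocounts of 1.5 and 5, a filter at a mean of 1 RPM, the ratio of means, leaving out each animal, Controls 1 and 5 only, and a replicate block. Counting errors cover the sampling of reads only.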

Additional observations from a re-analysis of the deposited data

Results flagged for a closer look

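In a group of 4 to 10 animals an extreme value was singled out when its gap to the nearest other animal made up an unusually large part of the range of the group. Chance marks about 1 in 20 groups, and 6 of the 48 groups of the 24 pathway genes were marked. Cth in MO male 2, at 219.6 RPM, lay below the other MO males at 341.3 to 359.6 RPM, and without this animal the log2 difference of Cth was -1.47 in place of -1.60. The other 5 were all Control male 6 as the highest Control, whose library also had the highest median of the table. They were Mpst at 185.0 RPM (the others at 103 to 133 RPM), Cbs at 506 RPM (299 to 376 RPM), Amt at 74.7 RPM (47.3 to 56.8 RPM), Mtap at 9.78 RPM (4.40 to 6.27 RPM) and Gamt at 507 RPM (275 to 361 RPM). Cth, Bhmt and Gldc were not marked in the Controls.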

How the results depend on the processing

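Centring the libraries was the setting that moved the values of the 3 members beyond their spread between animals, to -1.02 for Cth, -0.95 for Bhmt and -0.81 for Gldc, all still lower in MO males. Under the other settings they stayed within it, and leaving out 1 animal gave -1.66 to -1.47 for Cth, -1.68 to -1.41 for Bhmt and -1.51 to -1.27 for Gldc. Centring turned 10 of the other 21 pathway genes to slightly above 0: Amt 0.104, Gamt 0.102, Psph 0.0915, Mthfs 0.075, Mmaa 0.0606, Mtap 0.0559, Nfe2l2 0.0556, Suox 0.0481, Glyctk 0.0474 and Aldh1l1 0.0381. This follows from subtracting a shift of -0.58. Of the 1365 male rows that passed, 72 did so after centring (48 higher and 24 lower, against 48 and 1317), 531 with Controls 1 and 5 as the only Controls, and 1282 to 1364 without 1 animal. In females 56 of 69 rows passed and 34 to 53 did without 1 animal, with 34 without MO female 2 and 37 without MO female 5. Pearson's r within the Controls ran from -0.33 to 0.46 for Cth and Bhmt, from 0.07 to 0.81 for Cth and Gldc and from -0.77 to 0.10 for Bhmt and Gldc without 1 animal, and that of Bhmt and Gldc was 0.00999 after centring. With the replicate number as a block 1344 male and 26 female rows passed, and the members were at -1.66, -1.57 and -1.29. Deviations of same-numbered males correlated at -0.10 to 0.15 and of same-numbered females at -0.42 to 0.33. These values do not show a pairing by number, and over selected rows they cannot exclude one. Of the 3 members depth limits Gldc most, at 142 reads in its lowest library, while Mtap and Psph rested on as few as 32 and 37 reads. With 5 RPM added in place of 1, Mtap was at -0.32 and Psph at -0.31.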
